A study of Rattus norvegicus with 16 samples.

Results

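The comparison described here set the dentate gyrus of rats at 3 h against 2 h, in a study of passive avoidance, and covers 4 of the study's 16 arrays: 2 labelled 3 hour and 2 labelled 2 hour. The members were chosen by these labels alone, and the comparison is described over the 6220 probe sets tested of 8740 that are not controls. Both groups carry the same label otherwise: total RNA from dentate gyrus of passive avoidance trained rats, with no strain, age, drug or genotype named in the labels. The other arrays were labelled naive (3 arrays), 0 h (2), 6 h (3), 12 h (2) and 24 h (2), and entered the fit only through the estimate of spread. The labels do not say from which event the hours count, and they put the words for trained rats on the naive arrays too. They do not say whether the 2 replicates of a group came from separate animals, so the p-values cover only the variation among these arrays, part or all of which could be technical.

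The dentate gyrus is the gate through which cortical input enters the hippocampus, and its main cell is the glutamatergic granule neuron, which is held in check by GABA-releasing interneurons. Passive avoidance is a task in which an animal learns, often in a single trial, to withhold a step that was followed by an aversive event. After such learning, immediate early genes are known to be transcribed within minutes and to decline again, followed by slower waves of genes for synaptic, adhesion and metabolic proteins, and a comparison of neighbouring hours asks what differs inside that window.

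Each array gave 1 intensity per probe set, a group of short probes for 1 transcript. All arrays were brought to one 2% trimmed mean, 105. The pooled 20th percentile, 5.05, served as the lowest level for dimmer values before the log2 step. Levels below are log2 of this scaled intensity, and differences are 3 h minus 2 h on the log2 scale, ± the standard error of limma's fit. Levels of different probe sets cannot be set against each other.

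Before scaling, the trimmed mean was 72.6 and 56.6 on the 2 h arrays and 148 and 102 on the 3 h arrays, so both 3 h arrays were brighter. The 3' to 5' ratio of the beta-actin control, which is higher where labelled copies are shorter, was 1.96 and 2.69 at 2 h and 1.51 and 2.15 at 3 h, and these ranges overlap. The share of tested probe sets at the lowest level was 1.66% and 2.44% at 2 h and 2.33% and 3.95% at 3 h. Correlations over probe sets were 0.949 between the 2 h arrays, 0.960 between the 3 h arrays and 0.935 to 0.954 across the groups, so the 2 h arrays were no more alike than the closest pair across hours. Of 18 granule neuron markers, 5 were measured: Calb1, the calcium buffer of mature granule cells, was 8.47 and 8.36 at 2 h and 8.42 and 8.44 at 3 h, and Pdyn, prodynorphin, was 8.40 and 8.18 at 2 h and 8.63 and 7.92 at 3 h. Prox1, the transcription factor that defines these neurons, was not analysed here. Neurod2, a transcription factor of these and other forebrain neurons, was 6.56 and 6.65 at 2 h and 5.86 and 5.62 at 3 h, lower at 3 h at unadjusted p under 0.05. Of the 5 measured markers, 4 were lower and 1 higher at 3 h. For 2 the arrays did not overlap and 3 h was lower, and for 0 the reverse, against 28.7% and 16.5% of all probe sets.

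Bckdha rose and Hnrnpu fell between the groups labelled 2 h and 3 h, and no other probe set passed limma's test after Benjamini-Hochberg adjustment at 0.05. That is 0.0161% of probe sets tested in each direction, and 6 probe sets passed at 0.10. At an unadjusted p under 0.05, 183 probe sets were higher at 3 h (2.94%) and 381 were lower (6.13%). These 564 calls stood beside 311 expected by chance at that threshold. With 3 h replicate 1 left out 20 probe sets passed the adjusted test, and with 3 h replicate 2 left out 2. The 4 arrays did not overlap for 1024 probe sets higher at 3 h (16.5%) and 1786 lower (28.7%). With 2 arrays against 2, non-overlap is often reached by chance alone, in either direction. They lay at least 2-fold apart for 34 higher (0.547%) and 94 lower (1.51%).

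The whole distribution leaned to the 2 h side: the median difference over tested probe sets was -0.10. With quantile normalization it was 0.01 and with each array centred on its median 0.02. The split of unadjusted calls moved with this scaling, from 32.4% higher at 3 h to 52.3% with quantile normalization (249 higher, 227 lower) and 54.1% with median centring (312 higher, 265 lower). For probe sets at least 2-fold apart, the share higher at 3 h was 26.6%, 58.8% and 46.5% under the same 3 scalings. The excess of lower probe sets among unadjusted calls was thus seen under the trimmed-mean scaling and not under the other 2, and the median of each gene list is given relative to the array medians as well. Of all tested probe sets, 3619 (58.2%) were lower and 2594 (41.7%) higher at 3 h, against which the counts of each list can be read. The median absolute difference was 0.30 between the 2 h replicates, 0.31 between the 3 h replicates and 0.31 between the means of the 2 groups. The first 2 values compare single arrays and the third compares means of 2 arrays, so they are not on 1 footing.

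**Figure D1:**
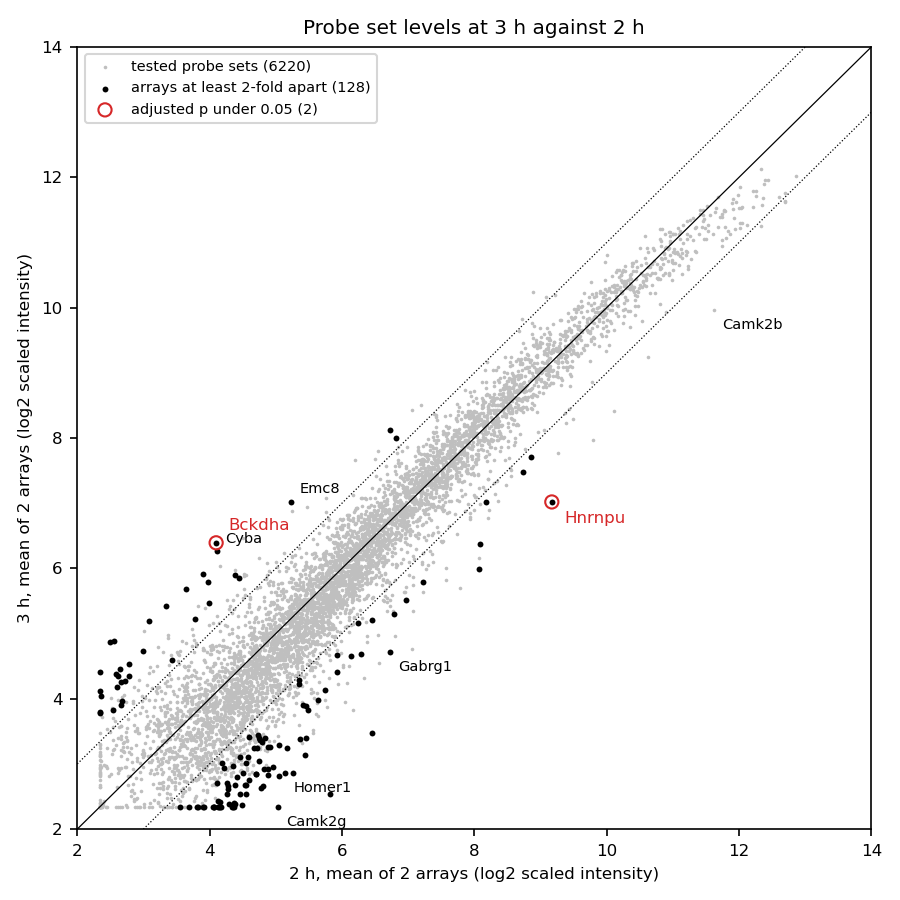
Each point is 1 of 6220 tested probe sets, with the mean of the 2 arrays at 2 h on the horizontal axis and at 3 h on the vertical axis, both as log2 scaled intensity; the dotted lines mark 2-fold differences. Most points lie along the diagonal, 128 probe sets (black) have arrays at least 2-fold apart, and Bckdha and Hnrnpu (red circles) passed the adjusted test.

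Bckdha encodes the alpha subunit of the first component of the branched-chain keto acid dehydrogenase, which commits leucine, isoleucine and valine to breakdown. Its level was 3.39 and 4.81 at 2 h and 6.28 and 6.51 at 3 h. Both 3 h arrays were above both 2 h arrays, and the 12 arrays of the other groups lay between 5.63 and 6.62, so the 2 h arrays were the low ones. The difference was 2.29 ± 0.37, 4.91-fold higher at 3 h (limma, adjusted p = 0.0346). A second probe set from the same sequence was 5.49 and 4.61 at 2 h and 5.89 and 6.05 at 3 h, a difference of 0.92 ± 0.43 (adjusted p = 0.548). The call depended on single arrays: without 2 h replicate 1 the difference was 1.58 (adjusted p = 0.142), without 3 h replicate 2 it was 2.18 (adjusted p = 0.344), and without 2 h replicate 2 it was 3.01 (adjusted p = 0.00149).

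Hnrnpu encodes a nuclear protein that binds RNA and scaffold-attached DNA. Its level was 9.13 and 9.22 at 2 h and 6.40 and 7.63 at 3 h. Here the 3 h arrays were the low ones: the 2 h arrays were near the top of the range of the 12 other arrays, 7.88 to 9.15, and both 3 h arrays were under it. The difference was -2.15 ± 0.33, 4.44-fold lower at 3 h (limma, adjusted p = 0.0346). The second probe set of the same sequence was 7.79 and 7.75 at 2 h and 7.54 and 6.54 at 3 h, a difference of -0.73 ± 0.42 (adjusted p = 0.636), with 3 h replicate 1 close to the 2 h arrays. The 2 probe sets differed in which 3 h array was lower. Without 3 h replicate 1 the first gave -1.54 (adjusted p = 0.0530), without 2 h replicate 2 -2.11 (adjusted p = 0.291), and without 3 h replicate 2 -2.77 (adjusted p = 0.000743). The Bckdha call was lost in 20 of the 32 alternative settings and the Hnrnpu call in 19.

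Next to these, the genes with the smallest unadjusted p among probe sets whose arrays did not overlap were taken, to 15 in each direction; none of the others passed the adjusted test (adjusted p 0.0950 to 0.254, limma). Among the 15 higher at 3 h, Emc8, a subunit of the complex that inserts proteins into the endoplasmic reticulum membrane, was 5.43 and 5.02 at 2 h and 6.84 and 7.22 at 3 h, a difference of 1.80 ± 0.33 (adjusted p = 0.095). Stk25, a Ste20-family kinase at the Golgi, was 6.55 and 5.83 at 2 h and 7.39 and 7.93 at 3 h. For both genes the 2 h arrays lay under all 12 arrays of the other groups.

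The other higher genes are given by their known roles, and no list of them was tested. Rab6a, a Golgi GTPase, was 9.51 and 8.94 at 2 h and 10.08 and 10.30 at 3 h. Rcn3, a calcium-binding protein of the endoplasmic reticulum, was 6.10 and 5.43 at 2 h and 7.25 and 6.92 at 3 h, and Nenf, the secreted protein neudesin, was 6.98 and 6.72 at 2 h and 7.67 and 8.06 at 3 h. Ap2s1, the small subunit of the clathrin adaptor at the plasma membrane, was 7.52 and 7.25 at 2 h and 8.27 and 8.48 at 3 h, and its second probe set differed in the same direction (0.99 and 0.72). Furin, the protease that cleaves proproteins, was 4.85 and 4.17 at 2 h and 5.71 and 6.11 at 3 h, but the other probe set of the same sequence was lower at 3 h (1.40 against -0.55).

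Cyba, the membrane subunit of the superoxide-forming NADPH oxidase, was 3.94 and 4.29 at 2 h and 6.10 and 6.42 at 3 h, and was the 1 gene of the 15 whose 3 h arrays exceeded all 12 other arrays (range 3.38 to 5.86). Selenow, a small selenoprotein, was 9.09 and 8.69 at 2 h and 10.05 and 10.42 at 3 h. Mvk, mevalonate kinase of sterol synthesis, was 3.97 and 3.33 at 2 h and 5.59 and 5.77 at 3 h, and its other probe set overlapped at 3.52 and 5.15 at 2 h and 5.62 and 5.02 at 3 h. Tln1, talin, which ties integrins to actin, was 3.48 and 4.31 at 2 h and 5.95 and 5.88 at 3 h. Coa3, an assembly factor of cytochrome c oxidase, was 5.69 and 4.80 at 2 h and 6.69 and 7.08 at 3 h. Ginm1 differed by 1.25 and Grifin, a lens galectin relative, by 2.37, with 1 of the Grifin 2 h arrays at the lowest level.

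Of the 15 lower genes, those with roles at the synapse come first. Gabrg1, the gamma-1 subunit of the GABA-A receptor, was 6.51 and 6.93 at 2 h and 5.13 and 4.29 at 3 h. Both 2 h arrays lay above the 12 other arrays (4.87 to 6.28), and the difference was -2.01 ± 0.41, 4.02-fold lower at 3 h (adjusted p = 0.122, limma). Without 3 h replicate 1 it was -2.43 (adjusted p = 0.0450). Homer1, a postsynaptic scaffold that links metabotropic glutamate receptors to calcium stores, was 5.29 and 4.98 at 2 h and 2.90 and 2.81 at 3 h on 1 probe set, where the 2 h arrays were above and the 3 h arrays below all 12 others (3.23 to 4.83). The other 5 Homer1 probe sets differed by -0.64 to 0.30, so this difference was not shared by the gene's other probe sets.

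Calcium/calmodulin-dependent kinase II, a multi-subunit kinase that records calcium entry at synapses, appeared with 2 of its subunit genes. Camk2b was 11.44 and 11.79 at 2 h and 10.59 and 9.33 at 3 h on 1 probe set and 10.05 and 10.19 at 2 h and 9.27 and 7.57 at 3 h on the other, differences of -1.65 ± 0.42 and -1.70 ± 0.49 (adjusted p = 0.254 and 0.3). On the first, both 2 h arrays were above the 12 other arrays (9.44 to 10.98), while 3 h replicate 1 lay inside that range and replicate 2 just under it. Without 3 h replicate 1 the difference on the first was -2.28 (adjusted p = 0.0450), and without 3 h replicate 2 it was -1.02. Camk2g was 4.80 and 5.27 at 2 h and 2.34 and 2.34 at 3 h on the probe set with the largest difference. Both 3 h arrays sat at the lowest level, so it was at least 6.5-fold lower at 3 h (adjusted p = 0.183), and the 12 other arrays were also low (2.34 to 3.15). Its other 2 probe sets differed by -0.87 ± 0.37 and -0.69 ± 0.33. The 3 Camk2d probe sets differed by -0.37, -0.34 and -0.09 and the 2 of Camk2a by 0.13 and 0.10, each less than its error.

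The promoters of Camk2b and Camk2g are shown because these are the paralogous genes among the 15 lower genes, each with more than 1 probe set lower at 3 h. Each line is the 250 bases before the start of the gene in RefSeq's GRCr8 assembly, read 5′ to 3′ in the direction of transcription, at chr14:85147945-85148194 (minus strand) and chr15:3553106-3553355 (plus strand). Capitals mark GGGCGG or its reverse complement CCGCCC, the GC box that Sp-family factors bind, with overlapping matches counted.
Camk2b: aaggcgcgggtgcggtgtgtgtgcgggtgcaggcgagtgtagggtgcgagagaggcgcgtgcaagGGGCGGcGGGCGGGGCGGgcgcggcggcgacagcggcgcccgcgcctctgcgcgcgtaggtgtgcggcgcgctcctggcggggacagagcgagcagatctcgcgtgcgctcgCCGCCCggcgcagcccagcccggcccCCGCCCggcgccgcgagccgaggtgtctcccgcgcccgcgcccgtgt
Camk2g: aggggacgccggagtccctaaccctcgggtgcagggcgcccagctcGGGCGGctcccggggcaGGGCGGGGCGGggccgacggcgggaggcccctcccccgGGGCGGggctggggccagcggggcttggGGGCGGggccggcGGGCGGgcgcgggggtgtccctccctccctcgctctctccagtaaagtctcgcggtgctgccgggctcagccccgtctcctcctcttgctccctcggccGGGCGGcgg
The Camk2b stretch held 5 matches and 80.4% G or C, and the Camk2g stretch 7 matches and 80.8%. Over 33469 rat promoters of the same length, 30.5% held at least 1 match, and 1.72% and 0.347% held at least 5 and at least 7. The median was 51.2% G or C, and 0.986% and 0.858% were at least as rich in G or C as the Camk2b and Camk2g stretches. The match is made of G and C alone, and the counts were not compared with promoters of like content. A match is a stretch of letters, and occupancy was not measured here.

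**Figure D2:**
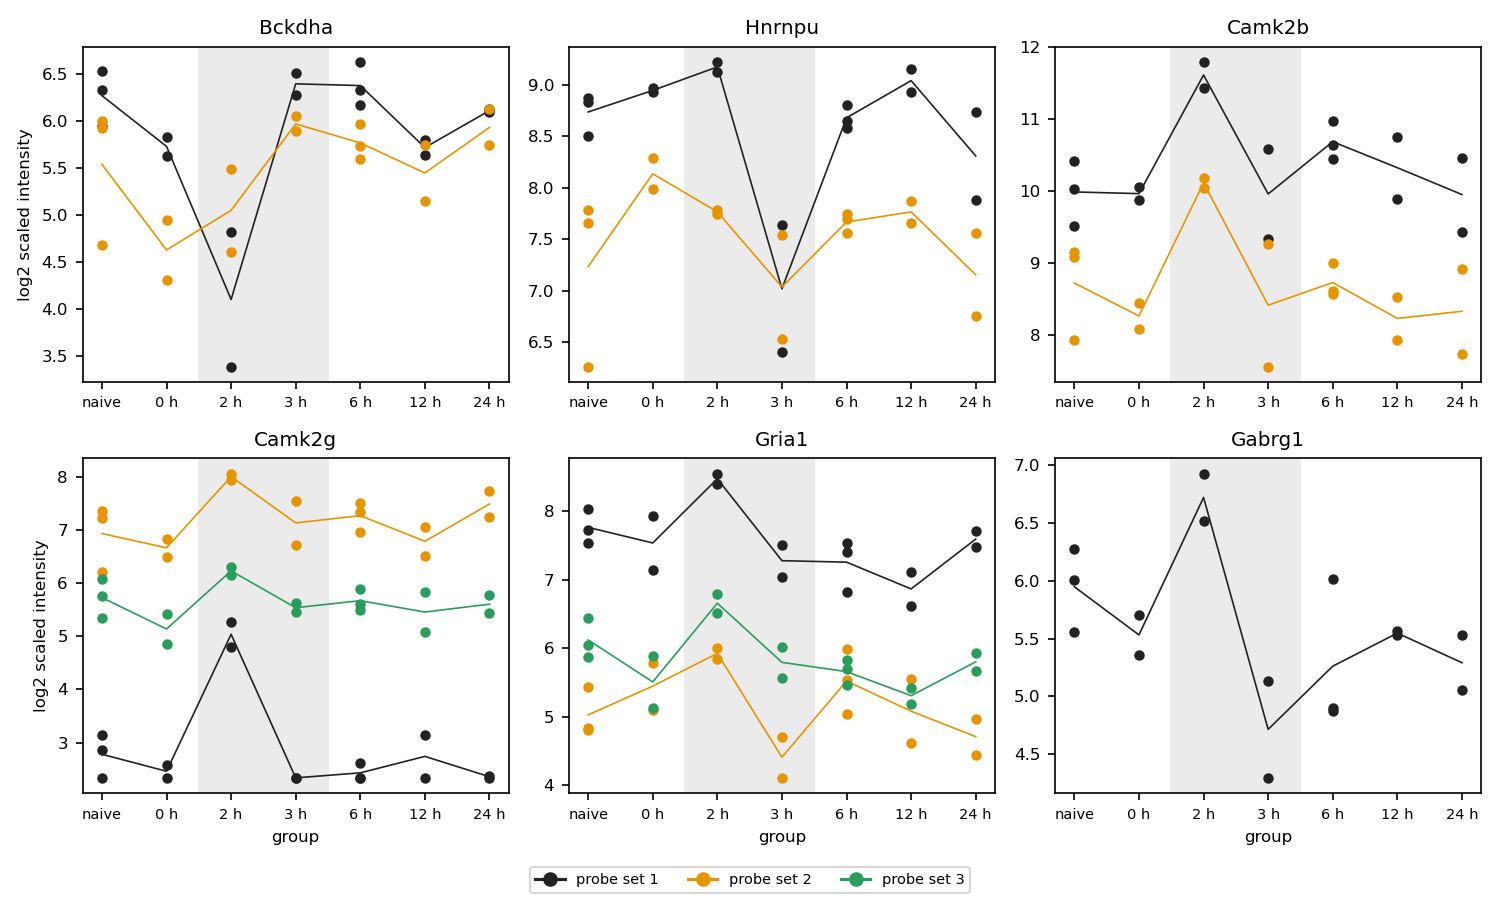
Log2 scaled intensity of 6 genes on all 16 arrays by group, with a point per array, lines through group means and a colour per probe set; grey marks the 2 h and 3 h groups. The 2 h means were the highest for every probe set of Camk2b, Camk2g, Gria1 and Gabrg1; for Bckdha the 2 h arrays were below all others on probe set 1 and not on probe set 2, and for Hnrnpu the 3 h arrays were below all others on probe set 1 and not on probe set 2.

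Other lower genes were a mixed group. Atp1b1, the beta subunit of the sodium pump, was 10.59 and 10.66 at 2 h and 9.79 and 8.71 at 3 h, and its other 2 probe sets differed by -0.55 and -0.43. Gnao1, the alpha subunit of the neuronal G protein Go, was 7.98 and 8.43 at 2 h and 7.40 and 7.34 at 3 h on its dimmer probe set, with -0.92 and -0.83 on its 2 probe sets. Adarb1, which edits glutamate receptor transcripts, was 6.73 and 6.72 at 2 h and 5.26 and 5.76 at 3 h. Nfix, a transcription factor of neural stem cells, differed by -1.09, -1.34 and -1.47 on 3 probe sets. Pja2, a ubiquitin ligase, was 9.25 and 9.72 at 2 h and 8.38 and 8.20 at 3 h, and its other 2 probe sets differed by -0.22 and -0.86. Add3, which caps actin filaments, was 6.78 and 7.09 at 2 h and 6.00 and 5.27 at 3 h. Gse1 differed by -1.50. The probe sets annotated to Myh1, a muscle myosin, and Rsph1, a part of motile cilia, differed by -1.15 and -2.02, the second with 1 of the 3 h arrays at the lowest level.

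Set against the naive arrays, the 2 h group was the one that stood apart more often. For all 15 higher genes both 2 h arrays lay below the naive mean, and for all 15 lower genes both lay above it. Both 3 h arrays passed the naive mean the other way for 12 of 15 in each direction. Both 2 h arrays lay outside the range of the 12 arrays of the other groups for 8 of the higher and 11 of the lower genes, and both 3 h arrays for 1 and 2 (Cyba; Hnrnpu and Homer1). Over the 381 lower probe sets, the 2 h mean was the highest of the 7 group means in 68.5% and the 3 h mean the lowest in 61.4%, against 19.8% and 18.2% of all tested. Over the 183 higher ones, the 2 h mean was the lowest in 78.1% and the 3 h mean the highest in 47.0%, against 15.7% and 8.81%. Part of these shares follows from choosing probe sets by the 2 h and 3 h values.

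**Figure D3:**
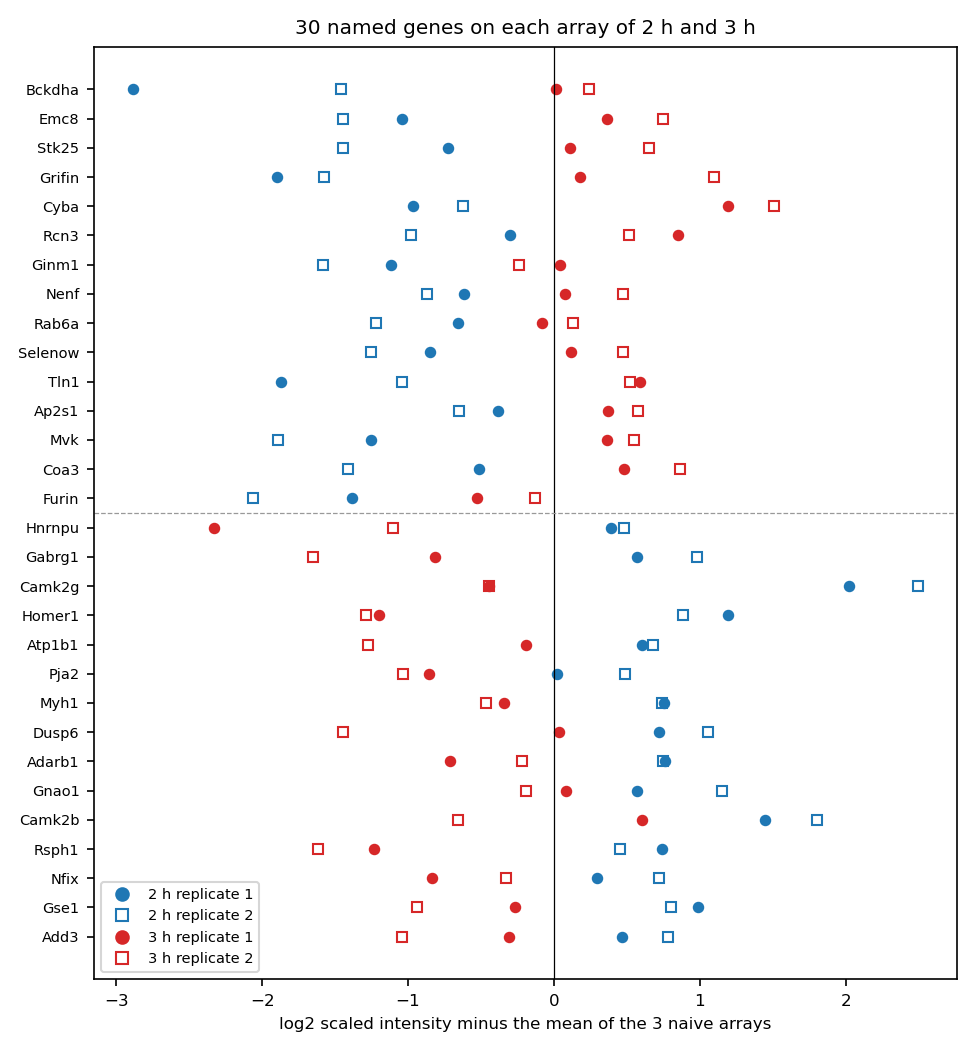
Log2 scaled intensity minus the naive mean (horizontal axis) for the 15 genes higher (above the dashed line) and the 15 lower at 3 h, with the 2 h arrays in blue and the 3 h arrays in red. The blue points lie on 1 side of the naive mean for every gene, and the red points lie on the other side of it for 24 of the 30.

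Genes with more than 1 probe set can be compared within the same arrays. Of 227 probe sets at unadjusted p under 0.05 whose gene had another tested probe set, 152 (67.0%) had every other probe set on the same side. The same share was not taken over the probe sets that were not called, so it has no background to be read against. Over 1 tested probe set was present for 1091 genes. Of these, 4 had at least 2 probe sets at unadjusted p under 0.05 and higher at 3 h (Ap2s1, Bckdha, Pgm1 and Rpp21). Another 17 had at least 2 lower. These genes were singled out after their values were seen. Among the 17, Gria1, the GluA1 subunit of the AMPA receptor, was 8.40 and 8.55 at 2 h and 7.51 and 7.04 at 3 h, with no overlap. Its 3 probe sets differed by -1.19 ± 0.31, -1.51 ± 0.42 and -0.86 ± 0.31 (adjusted p = 0.254, 0.269 and 0.386, limma). Map2, a microtubule protein of dendrites, had 3 of 4 probe sets at -2.97, -2.09 and -2.07, and the other at -0.36. Ccnd2, a D-type cyclin, was 9.72 and 9.88 at 2 h and 9.37 and 6.57 at 3 h, and only 3 h replicate 2 was far below the 2 h arrays. Gsk3b differed by -1.23 and -0.90, and Ccnd1 had 3 probe sets lower and 2 higher (0.43 and 0.30). A pair of probe sets from the same sequence, such as those of Camk2b, Bckdha and Gnao1, are not independent readings.

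The gene lists follow by role. Each gene is read from its brightest probe set on average, medians are 3 h minus 2 h, and no set test was run. Of 24 measured immediate early genes of 39, 20 were lower and 4 higher at 3 h, with a median of -0.32 (-0.20 relative to the array medians, -0.33 to -0.11 with 1 of the 4 arrays left out). 4 of the 24 were at unadjusted p under 0.05 and lower (Dusp6, Klf6, Atf3 and Nr4a3), and none higher, against 6.13% and 2.94% of all probe sets. Dusp6, the phosphatase that shuts off ERK, was 7.06 and 7.40 at 2 h and 6.37 and 4.89 at 3 h, and its second probe set was 6.37 and 6.28 at 2 h and 5.91 and 2.72 at 3 h, so 3 h replicate 2 was the lowest array on both. Without 3 h replicate 1 the first passed the adjusted test (-2.33, adjusted p = 0.0235), and without 3 h replicate 2 it was -0.86. Klf6 was 4.09 and 6.01 at 2 h and 2.84 and 2.79 at 3 h, and Nr4a3, an orphan nuclear receptor, was 7.30 and 7.61 at 2 h and 7.08 and 6.03 at 3 h. Of the classic activity markers, Arc, a dendritic protein of synaptic plasticity, was 7.57 and 7.64 at 2 h and 7.45 and 7.54 at 3 h. Egr1, a zinc finger transcription factor, was 8.88 and 8.67 at 2 h and 8.85 and 8.60 at 3 h on its brightest probe set, and its other probe sets disagreed. One was lower at 3 h with no overlap (5.87 and 5.66 at 2 h and 5.02 and 4.92 at 3 h), another higher with no overlap (4.58 and 3.22 at 2 h and 4.82 and 4.68 at 3 h), and the remaining one differed by 0.30. Fos was 7.03 and 6.56 at 2 h and 6.65 and 6.25 at 3 h, and the 2 groups overlapped.

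Glutamate receptors and their scaffolds had 30 of 41 genes measured, 22 lower and 8 higher, with a median of -0.25 (-0.13 relative to the array medians, -0.51 to -0.06 with 1 of the 4 arrays left out). The median was -0.06 without 3 h replicate 2 and -0.51 without 3 h replicate 1. Gria1 was the 1 member of 30 at unadjusted p under 0.05, lower, against 6.13% of all probe sets. Gria2, the subunit that limits calcium entry, was 7.76 and 7.90 at 2 h and 7.68 and 7.59 at 3 h. Another Gria2 probe set was 8.25 and 8.39 at 2 h and 7.34 and 6.95 at 3 h, with no overlap. Grin1, the obligatory NMDA receptor subunit, was 6.17 and 5.57 at 2 h and 5.51 and 4.77 at 3 h. The other Grin1 probe sets differed by -1.46, -1.06 and 0.96. Of these, the last had 1 of the 2 h arrays at the lowest level, and the middle one had 1 of the 3 h arrays there.

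Of the GABA system, 19 of 27 genes were measured, 14 lower and 5 higher, with a median of -0.31 (-0.19 relative to the array medians, -0.57 to -0.09 with 1 of the 4 arrays left out); the end nearest 0 was without 3 h replicate 2. Gabrg1, Gabrr1 and Gad2, 3 of the 19, were at unadjusted p under 0.05, all lower, against 6.13% lower over all probe sets. Gad2, which makes GABA at terminals, was 4.93 and 4.73 at 2 h and 3.70 and 3.10 at 3 h, and Gabrr1, a rho receptor subunit best known from retina, was 5.67 and 5.64 at 2 h and 3.88 and 4.65 at 3 h. Gad1, the larger GABA-synthesizing enzyme, was 8.58 and 9.02 at 2 h and 8.32 and 8.85 at 3 h, and its groups overlapped.

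Voltage-gated channels, listed together with Kcnj potassium channels, had 35 of 56 measured, 24 lower and 11 higher. Their median was -0.29 (-0.17 relative to the array medians, -0.45 to -0.09 with 1 of the 4 arrays left out). The end nearest 0 was without 3 h replicate 2. 5 of the 35 were at unadjusted p under 0.05, all lower, against 6.13% over all probe sets: Kcnd2, Kcnd3, Kcnj1, Scn3a and Kcnq3. Other Kcnj1 probe sets differed by -0.38 and -0.45, and on both the groups overlapped. Kcnd2, the A-type potassium channel of dendrites, was 6.54 and 6.73 at 2 h and 5.81 and 5.19 at 3 h. Kcnd3 was 6.02 and 6.30 at 2 h and 5.28 and 2.37 at 3 h, where replicate 2 alone was far down. For 17 members the arrays did not overlap and 3 h was lower, and for 2 they did not overlap and 3 h was higher, against 28.7% and 16.5% of all probe sets.

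Synaptic vesicle genes (37 of 54) had 23 lower and 14 higher and a median of -0.09 (0.03 relative to the array medians, -0.20 to -0.0045 with 1 of the 4 arrays left out). Cplx2, a clamp on vesicle fusion, was 7.36 and 7.78 at 2 h and 6.69 and 4.95 at 3 h. Adhesion and matrix genes (46 of 65) had 32 lower and 14 higher and a median of -0.25 (-0.13 relative to the array medians, -0.28 to -0.05 with 1 of the 4 arrays left out); the end nearest 0 was without 2 h replicate 2. Those at unadjusted p under 0.05 were Cdh22, Tnr, Ncam1, Nrxn3 and Sparc, lower (5 of 46, against 6.13% of all probe sets), and Itgb1, higher (1 of 46, against 2.94%). Ncam1, a neural adhesion molecule, was 7.57 and 7.65 at 2 h and 7.13 and 6.16 at 3 h. For 3 of the lower genes other probe sets were on the other side: Ncam1 by 0.20, Cdh22 by 0.16, and Sparc by 0.29 and 0.36. Itgb1, the common beta-1 integrin, was 6.86 and 7.10 at 2 h and 7.76 and 7.97 at 3 h. Cytoskeleton and neurite genes (25 of 42) had 21 lower and 4 higher and a median of -0.25 (-0.13 relative to the array medians, -0.32 to -0.12 with 1 of the 4 arrays left out). Pfn1, profilin, was 8.50 and 8.83 at 2 h and 9.12 and 9.31 at 3 h. Pfn1 was the 1 of 25 higher at unadjusted p under 0.05 (against 2.94% of all probe sets). Dpysl2, with a difference of -1.45, was the 1 of 25 lower (against 6.13%). Map2 was not counted as lower, since its brightest probe set differed by -0.36, while its others differed by -2.97, -2.09 and -2.07.

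Kinase and cyclic AMP genes (42 of 61) split 18 higher and 24 lower with a median of -0.08 (0.04 relative to the array medians, -0.20 to 0.03 with 1 of the 4 arrays left out). The catalytic subunits of protein kinase A were the 2 of 42 members at unadjusted p under 0.05 and higher, against 2.94% of all probe sets. Prkaca was 7.36 and 7.47 at 2 h and 8.18 and 8.53 at 3 h, with no overlap, while on another Prkaca probe set the groups overlapped (0.29). Prkacb was 9.45 and 9.17 at 2 h and 9.76 and 9.86 at 3 h, with a second Prkacb probe set at -0.42. On the lower side stood 4 of 42, against 6.13%: Camk2b, Camk2g, Mapk9 and Ppp3ca, the catalytic subunit of calcineurin, at 10.69 and 10.93 at 2 h and 9.88 and 10.24 at 3 h. Of glucocorticoid-related genes (12 of 23), the receptors Nr3c2 and Nr3c1 were lower at unadjusted p under 0.05, 2 of 12 against 6.13% of all probe sets, while the list's median was -0.06 (0.06 relative to the array medians, -0.20 to 0.05 with 1 of the 4 arrays left out). Nr3c2, the mineralocorticoid receptor, was 7.11 and 7.04 at 2 h and 6.35 and 6.03 at 3 h, and its second probe set differed by -0.92.

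Metabolic and housekeeping lists had medians from -0.16 to 0.26. Branched-chain and related acyl-CoA catabolism (17 of 31 genes) had 15 higher and 2 lower, with a median of 0.26 (0.38 relative to the array medians, 0.17 to 0.28 with 1 of the 4 arrays left out). This list was drawn up with the Bckdha result known, so it is no independent evidence of a direction. Apart from Bckdha, Bckdhb, the partner subunit, was 6.10 and 5.91 at 2 h and 6.65 and 6.56 at 3 h, and Echs1, enoyl-CoA hydratase, was 7.36 and 7.40 at 2 h and 7.89 and 8.26 at 3 h. 3 of the 17, Bckdha included, were at unadjusted p under 0.05 and higher, against 2.94% of all probe sets. For 8 members the arrays did not overlap and 3 h was higher, and for none the reverse, against 16.5% and 28.7% of all probe sets.

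Oxidative phosphorylation (38 of 76) had 23 higher and 15 lower with a median of 0.07 (0.19 relative to the array medians, -0.05 to 0.16 with 1 of the 4 arrays left out); it was below 0 without 3 h replicate 2. Ndufv3, Cox7a2l and Cox6c were higher (3 of 38, against 2.94% of all probe sets), and Cox8b and Cox5a lower (2 of 38, against 6.13%), at unadjusted p under 0.05. The 2 Cox6c probe sets went opposite ways, each with no overlap and at unadjusted p under 0.05: the brighter was 7.51 and 7.17 at 2 h and 7.85 and 7.92 at 3 h, and the other was 4.94 and 5.73 at 2 h and 3.71 and 4.46 at 3 h. The second Cox8b probe set was at the lowest level on all 4 arrays. Glycolysis (20 of 30) had 11 higher and 9 lower with a median of 0.02 (0.14 relative to the array medians, -0.0011 to 0.12 with 1 of the 4 arrays left out). Aldoa, muscle-type aldolase, was 9.48 and 8.68 at 2 h and 10.28 and 10.06 at 3 h. Aldoa was the 1 of 20 higher at unadjusted p under 0.05 (against 2.94% of all probe sets). Pfkfb3, with a difference of -0.92, was the 1 of 20 lower (against 6.13%). Proteasome and ubiquitin genes (29 of 47) had 20 higher and 9 lower with a median of 0.06 (0.18 relative to the array medians, 0.04 to 0.10 with 1 of the 4 arrays left out). Their members at unadjusted p under 0.05 were Nedd4 (-1.91) and Psmd4 (-0.68), both lower (2 of 29, against 6.13% of all probe sets). Other Psmd4 probe sets differed by -0.05 and -0.05. Heat shock proteins and chaperones (32 of 46) had 18 higher and 14 lower with a median of 0.06 (0.18 relative to the array medians, -0.03 to 0.09 with 1 of the 4 arrays left out) and no member at unadjusted p under 0.05. Ribosomal protein genes (37 of 79) had 28 lower and 9 higher with a median of -0.16 (-0.04 relative to the array medians, -0.27 to -0.00042 with 1 of the 4 arrays left out); it was near 0 without 3 h replicate 1 and lowest without 3 h replicate 2.

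RNA-binding and editing genes (19 of 42), a list drawn up with Hnrnpu known, had 13 lower and 6 higher and a median of -0.15 (-0.03 relative to the array medians, -0.26 to 0.04 with 1 of the 4 arrays left out). Hnrnpu, Adarb1 and Khdrbs1 were lower at unadjusted p under 0.05, 3 of 19 against 6.13% of all probe sets. Trophic factors and neuropeptides (31 of 42) had 21 lower and 10 higher and a median of -0.13 (-0.01 relative to the array medians, -0.18 to -0.10 with 1 of the 4 arrays left out). Nnat, neuronatin, was 8.55 and 9.20 at 2 h and 9.55 and 9.98 at 3 h, and Trh, thyrotropin-releasing hormone, was 5.92 and 6.02 at 2 h and 5.29 and 5.08 at 3 h, with a second Trh probe set at 0.62. Bdnf, a growth factor of granule cells, was 6.27 and 6.69 at 2 h and 6.43 and 6.18 at 3 h, and its groups overlapped. Its other probe sets differed by -1.35, -0.67, -0.39, -0.39, -0.20 and -0.01. The first of these was 4.67 and 4.07 at 2 h and 2.34 and 3.70 at 3 h, with 1 of the 3 h arrays at the lowest level.

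**Figure D4:**
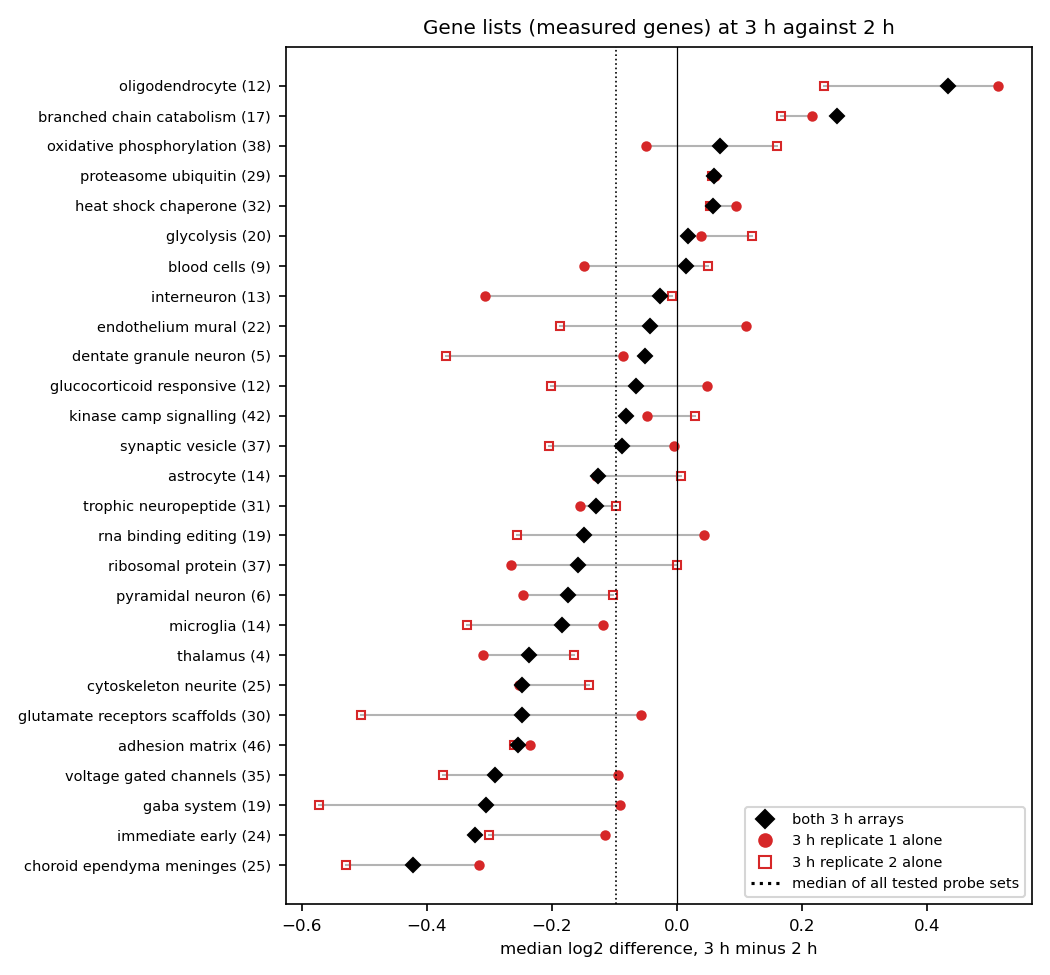
Median log2 difference, 3 h minus 2 h, for each gene list, with the number of measured genes in brackets; black diamonds use both 3 h arrays, red circles replicate 1 alone, red squares replicate 2 alone, and the dotted line is the median of all tested probe sets (-0.10). The glutamate, GABA and channel lists lay at -0.06 to -0.09 with 3 h replicate 1 alone and at -0.37 to -0.57 with replicate 2 alone.

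Markers of other cell types varied between single arrays beside these results. The oligodendrocyte list (12 of 24) had 9 higher and 3 lower and a median of 0.43 (0.55 relative to the array medians, 0.06 to 0.58 with 1 of the 4 arrays left out); the low end was without 2 h replicate 1. Each member's deviation from its own mean over the 4 arrays was also taken. The median of these deviations was -0.43 and 0.15 on the 2 h arrays and 0.28 and 0.07 on the 3 h arrays. Thus 2 h replicate 1 was the low one. Mal, a myelin protein, was 7.70 and 8.17 at 2 h and 8.87 and 8.55 at 3 h, while Mbp, myelin basic protein, was 10.95 and 11.49 at 2 h and 11.00 and 10.72 at 3 h. The choroid plexus, ependyma and meninges list (25 of 36) had 21 lower and 4 higher and a median of -0.42 (-0.30 relative to the array medians, -0.73 to -0.11 with 1 of the 4 arrays left out). The end nearest 0 was without 2 h replicate 2. Its median deviations were -0.03 and 0.52 at 2 h and -0.15 and -0.32 at 3 h. Ttr, transthyretin of the choroid plexus, was 6.14 and 9.03 at 2 h and 8.11 and 6.57 at 3 h, and the groups overlapped, as they did on its second probe set (0.79).

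The remaining marker lists had 0 to 2 members at unadjusted p under 0.05 in each direction. Granule neuron markers (5 of 18) had a median of -0.05 (0.07 relative to the array medians, -0.37 to 0.04 with 1 of the 4 arrays left out). Astrocyte markers (14 of 22) had a median of -0.13 (-0.01 relative to the array medians, -0.13 to 0.01 with 1 of the 4 arrays left out) and included Slc4a4, a bicarbonate transporter, at 6.54 and 7.59 at 2 h and 5.60 and 3.93 at 3 h, and Fabp7 at 7.03 and 7.43 at 2 h and 7.97 and 7.79 at 3 h. Microglia (14 of 26), endothelium and mural cells (22 of 34), interneurons (13 of 19), pyramidal neurons (6 of 20), thalamus (4 of 15) and blood cells (9 of 26) had medians of -0.18, -0.04, -0.03, -0.17, -0.24 and 0.02, which relative to the array medians were -0.06, 0.08, 0.09, -0.05, -0.12 and 0.13. The part of these cell types in the gene results was not tested, and in a bulk sample fewer cells of a type and less RNA per cell cannot be told apart.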

How the data were processed

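Total RNA of rat dentate gyrus was measured on 16 Affymetrix RGU34A arrays, grouped by the labels. The deposited values are linear intensity with 1 value per probe set on each array. How the authors corrected and summarised them was not given in the sources used here. Of 8799 probe sets, 59 controls were left out. Each array was scaled to the median 2% trimmed mean, floored at the pooled 20th percentile and put on the log2 scale, and probe sets over the pooled 40th percentile (16.9) on at least 2 arrays were tested. Symbols came from the platform annotation, updated by gene identifier (6994 matched): 7006 probe sets had 1 symbol, 308 several and 1426 none.

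limma 3.58.1 in R 4.3.3 (lmFit, eBayes with a variance trend) was fitted over all 16 arrays and 7 groups, with the contrast 3 h minus 2 h and Benjamini-Hochberg adjustment at 0.05 over 6220 probe sets. It was tested on simulated data. The number of arrays limits the precision. Named genes were those past the threshold, filled to 15 per direction by the smallest unadjusted p among non-overlapping probe sets, and the members of 27 lists with the smallest p, immediate early genes and defining markers. Members and lists were chosen with earlier results of these data known. Alternatives covered normalization, lowest level, filter, variance model, array weights, covariates, the arrays fitted, a replicate block, 1 value per gene and leaving out each array.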

Additional observations from a re-analysis of the deposited data

How the results depend on the processing

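With 2 arrays a group, single arrays moved the counts. The count of 2 probe sets past the adjusted threshold became 0 with median centring, the beta-actin ratio as a covariate or 1 value per gene. It was also 0 with only the 13 trained arrays or only the 4 arrays, 1 without a variance trend, and 7 with array weights or no filter. Bckdha and Hnrnpu were among the calls with array weights (limma, adjusted p = 0.0115 for each). Neither was among the calls without a variance trend (0.121 for each) or with no filter (0.113 for each). Leaving out each of the 16 arrays gave 0 to 20, the 20 without 3 h replicate 1, when Camk2b, Dusp6, Gabrg1, Atp1b1, Stk25, Cplx2 and Kcnd3 also passed. The 564 unadjusted calls became 358 under a filter set to the 60th percentile, 356 with 1 value per gene, 803 with array weights, 778 with no filter and 688 with only the 4 arrays, and 283 to 658 with an array left out: 283 without 3 h replicate 2 (223 of the 564 kept with the same sign) and 352 without 2 h replicate 2 (234 kept). The 128 probe sets at least 2-fold apart became 39 with that filter, 59 with 1 value per gene, 79 with the lowest level at the 30th percentile, and 297 to 553 with 1 of the 4 arrays left out, where fewer arrays must clear the gap.

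With the replicate block, 0 probe sets passed and 586 were at unadjusted p under 0.05. Deviations of same-numbered arrays correlated at 0.12, a single value since with 2 arrays a group the second pair mirrors the first, and the labels give no shared batch, so whether the numbers pair the arrays is not known. Over 81 named probe sets and 2575 alternative values, 0 reversed, 39 lost a call and 14 gained one. That 0 reversed says little, since these probe sets were named for their differences on the same arrays. Many settings also changed the error and left the difference as it was. Emc8 passed with quantile normalization, array weights and without 6 h replicate 2, and Camk2g with no filter and without a variance trend. Of the 27 list medians, 93 of 864 alternative values moved by over the replicate spread. The cause of these shifts was not tested. Signal near the lowest level limits what can be said of dim probe sets.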
